A study of Mus musculus with 16 samples.

Results

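The effect of intermittent hypoxia (IH) on the liver transcriptome was measured against room air (RA) in wild type C57BL/6J mice aged 12 weeks, with 4 RNA sequencing libraries per group. These 8 libraries, chosen by their treatment label, are part of 16 in the series; the other 8 come from mice of the same strain, genotype and age under sustained or overlap hypoxia. All 55487 genes of the deposited table were considered, and 14553 passed the filter on low counts and were tested. No allele or agent other than the inspired gas distinguishes the groups in the labels, and the sources used here give no oxygen level, cycle length, exposure time or hour of collection. The labels do not say that the libraries come from separate animals, so the p-values reflect variation among libraries, which may be technical.

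Intermittent hypoxia repeats short falls in inspired oxygen and is used in mice as a model of sleep apnoea. In low oxygen the prolyl hydroxylases that mark hypoxia-inducible factors (HIF) for degradation slow down, and HIF then induces genes of glycolysis, red cell formation and vessel growth. The liver stores and releases glucose and lipid, makes bile acids and most plasma proteins, and shows strong daily rhythms and, in mice, strong sex differences set by the pattern of growth hormone release.

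The IH libraries held a different mix of RNA from the RA libraries. One annotated ribosomal RNA gene took 22.1%, 25.6%, 34.8% and 18.5% of the counts of IH libraries 1 to 4, against 10.2%, 3.43%, 5.69% and 1.57% of RA libraries 1 to 4. Protein genes of the mitochondrial genome took 6.73% ± 1.71 in IH and 1.56% ± 0.498 in RA (mean ± SD, n = 4 each). Nuclear protein-coding genes took 60.9% ± 8.17 in IH and 89.3% ± 4.75 in RA. In each of these shares the groups did not overlap, with p = 0.0286 for each by an exact permutation test (two-sided), which 4 against 4 libraries cannot go below, and 0.0514 when adjusted over 9 tests. These shares are parts of the same total, so their tests are not independent. Library totals were 31746991 to 54612949 counts in IH and 37962713 to 59055092 in RA. The liver gene Alb, serum albumin, stood at 36132 to 58758 CPM in IH, against 37299.7 to 60643 CPM in RA (CPM, counts per library scaled to the same total), and of 12 photoreceptor markers, searched because the labels' protocol text names retina, 2 were tested, 2 were at 0 and all 12 together reached 5.71 to 13.3 CPM in IH, against 4.62 to 7.87 in RA. The Y-linked gene Ddx3y stood at 12.2 to 24.2 CPM in IH and 17.0 to 32.3 in RA, and the female-specific RNA Xist had 0, 0, 0 and 4.86 counts in IH libraries 1 to 4 and 0 in each RA library. Ddx3y and the summed photoreceptor markers were scaled to plain library totals, and CPM of other single genes to totals adjusted by TMM factors. Both kinds of total include the ribosomal RNA gene.

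**Figure D1:**
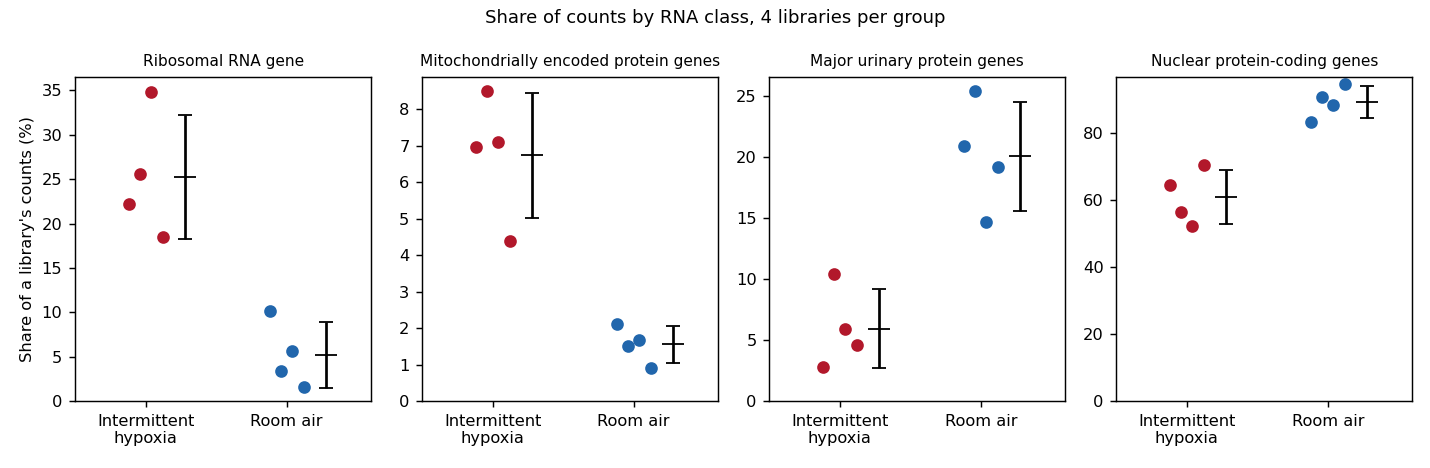
Share of each library's counts, in percent, taken by 4 classes of genes; points are the 4 libraries of intermittent hypoxia (left) and of room air (right), and bars are mean ± SD. The ribosomal RNA gene took 18.5% to 34.8% in intermittent hypoxia and 1.57% to 10.2% in room air, and the groups do not overlap in any panel. As a share of nuclear protein-coding genes, major urinary protein genes did overlap between groups.

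Over all genes, 2744 rose and 2660 fell in IH at an edgeR adjusted p under 0.05, which is 18.9% and 18.3% of the genes tested and 37.1% together. The change reached at least 2-fold in 1558 of those that rose and 620 of those that fell. The groups did not overlap in 5153 of all genes tested (35.4%), 2530 of them higher and 2623 lower in IH, so separation of a single gene was common. The median log2 difference of all genes was 0.03, and 0.12 with upper-quartile scaling. Libraries within IH differed more among themselves than those within RA, with biological coefficients of variation of 0.346 and 0.228. When the ribosomal RNA share of each library was added to the model, 43 genes rose and 34 fell, 75 of them also called without it, and the median standard error of the log2 differences was 0.455 with the share and 0.239 without it. Among the gene groups below, only the counts named in the text as kept with this share as covariate were above 0. Each gene named below as changed against RA, other than Adh4, Cited2, Pfkfb3, Scap and Sod2, kept its direction and call in every alternative that tested it other than this covariate, including each library left out in turn. List counts that moved under another alternative by over 1.5 times and by at least 2 genes are given with the moved count; moves of 1 gene are not listed. The groups and this share move together, so their parts in the differences cannot be told apart.

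Genes with long exon sequence, and some classes of unconfirmed, noncoding and pseudogene loci, rose more often in IH than all genes tested. The tested genes were split into 5 bins of like size by exon length. In the longest bin (7163 bases or more) 32.6% rose and 8.94% fell, while of 2908 genes in the shortest bin (up to 2085 bases) 291 rose and 773 fell. Median log2 differences ran through −0.24, −0.14, 0.01, 0.14 and 0.36 from the shortest to the longest bin, and lay between −0.08 and 0.03 with offsets for length and GC content. Of 275 tested loci annotated as unconfirmed transcripts (TEC), 77 rose and 3 fell, and of 29 sense intronic RNAs 13 rose and 1 fell. Of 45 transcribed unprocessed pseudogenes 16 rose and 5 fell, and of 277 processed pseudogenes 65 rose and 41 fell. Loci low in RA could enter the test through a group where they were higher, and how many did so in these classes was not counted. Of 12702 protein-coding genes 2359 rose and 2513 fell, with a median of 0.00.

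**Figure D2:**
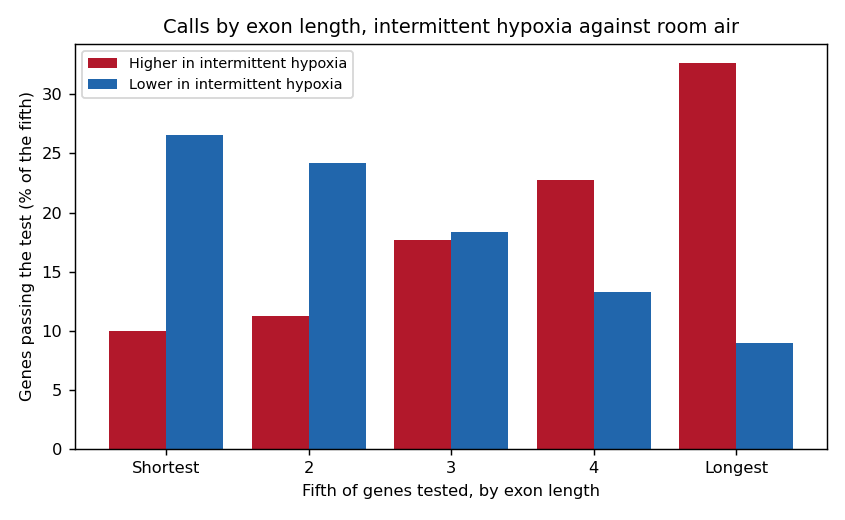
Percentage of genes that passed the test in each of 5 bins of the genes tested, ordered by exon length; red bars are genes higher and blue bars genes lower in intermittent hypoxia than in room air. The share of genes that rose is 32.6% in the longest bin and 11.2% in the second shortest, and the share that fell is 8.94% in the longest and 26.6% in the shortest.

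Among genes with at least 5 CPM and no overlap between groups, the 12 rises with the lowest p included genes of the clock, of stress kinase signalling and of DNA demethylation. Per2 (chromosome 1, 91415982 to 91459324, GRCm38), a repressor of the circadian clock, stood at 12.8, 27.7, 16.3 and 16.3 CPM in the IH libraries, against 2.47, 2.24, 1.95 and 3.14 CPM in the RA libraries (log2 difference 2.90, SE 0.25, edgeR adjusted p = 1.23e-06). Mapk8ip3 (chromosome 17, 24892153 to 24936977), a scaffold that binds JNK kinases, averaged 13.8 ± 1.38 CPM in IH and 2.24 ± 0.215 CPM in RA (SD, n = 4 each; log2 difference 2.62, SE 0.24, edgeR adjusted p = 2.31e-06). Both genes were well above RA in every IH library. Taok2, a kinase upstream of stress MAPK, rose by 1.97, and Mknk2, a kinase that phosphorylates the cap-binding protein eIF4E, by 2.01 on the log2 scale. Tet2 (chromosome 3, 133463679 to 133545139), which oxidises methylcytosine in DNA with oxygen as a substrate, stood at 9.25 to 12.0 CPM in IH, against 0.864 to 2.49 CPM in RA (log2 difference 2.75, SE 0.27, edgeR adjusted p = 4.46e-06). Akap8, Rnf169, Zpr1, Usp36 and Fnbp4, genes of nuclear proteins, rose by between 1.65 (Zpr1) and 2.26 (Fnbp4), and Xylb, xylulokinase, by 1.81 (edgeR adjusted p between 1.23e-06 and 5.28e-06 over the 12 genes). Gsta2 (chromosome 9, 78331018 to 78355788), a glutathione transferase of liver, stood at 68.2, 60.2, 62.2 and 66.9 CPM in the IH libraries, against 16.6, 21.7, 20.7 and 13.6 CPM in the RA libraries (log2 difference 1.83, SE 0.19, edgeR adjusted p = 5.28e-06), and 49.8% of its 50-base words occur in other genes, so that its count depends on how reads were shared out. Of the 12, Per2, Akap8, Taok2, Mapk8ip3, Zpr1, Usp36, Mknk2 and Gsta2 also passed with the ribosomal share as covariate.

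The 12 falls with the lowest p included genes of autophagy, splicing, electron transfer and fat storage. Gabarapl2 (chromosome 8, 111940703 to 111953612), a protein that coats growing autophagosomes, stood at 35.3, 41.1, 41.7 and 46.8 CPM in the IH libraries, against 96.3, 101, 108 and 123 CPM in the RA libraries (log2 difference −1.38, SE 0.15, edgeR adjusted p = 5.84e-06). Plin2 (chromosome 4, 86648386 to 86670060), which coats lipid droplets in the cytosol, stood at 197, 125, 159 and 141 CPM in the IH libraries, against 388, 579, 421 and 373 CPM in the RA libraries (log2 difference −1.50, SE 0.18, edgeR adjusted p = 8.50e-06). In both genes the highest IH library was below the lowest RA library, which the rule that chose the 12 falls required. Etfdh, which passes electrons from fatty acid oxidation to the respiratory chain, fell by 1.23 on the log2 scale (53.9 ± 11.8 CPM in IH and 126 ± 9.80 CPM in RA; SD, n = 4 each). Lgmn, the lysosomal protease legumain, differed by −1.58, and Guk1, guanylate kinase, by −1.29. Sf3b6 and Smu1, both parts of the spliceosome, differed by −1.22 and −0.99, and Dcun1d5, which promotes neddylation, by −1.39. Rdh7, a retinol dehydrogenase of liver, differed by −1.19, Cfhr2, of the complement system, by −1.38, and Aasdhppt, which attaches the pantetheine arm of fatty acid synthase, by −1.19. Pllp, plasmolipin, differed by −1.79, and 54.2% of its exon sequence lies across from a gene on the other strand, which counts without strand cannot separate. Pllp, Gabarapl2 and Aasdhppt kept their calls with the ribosomal share as covariate.

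**Figure D3:**
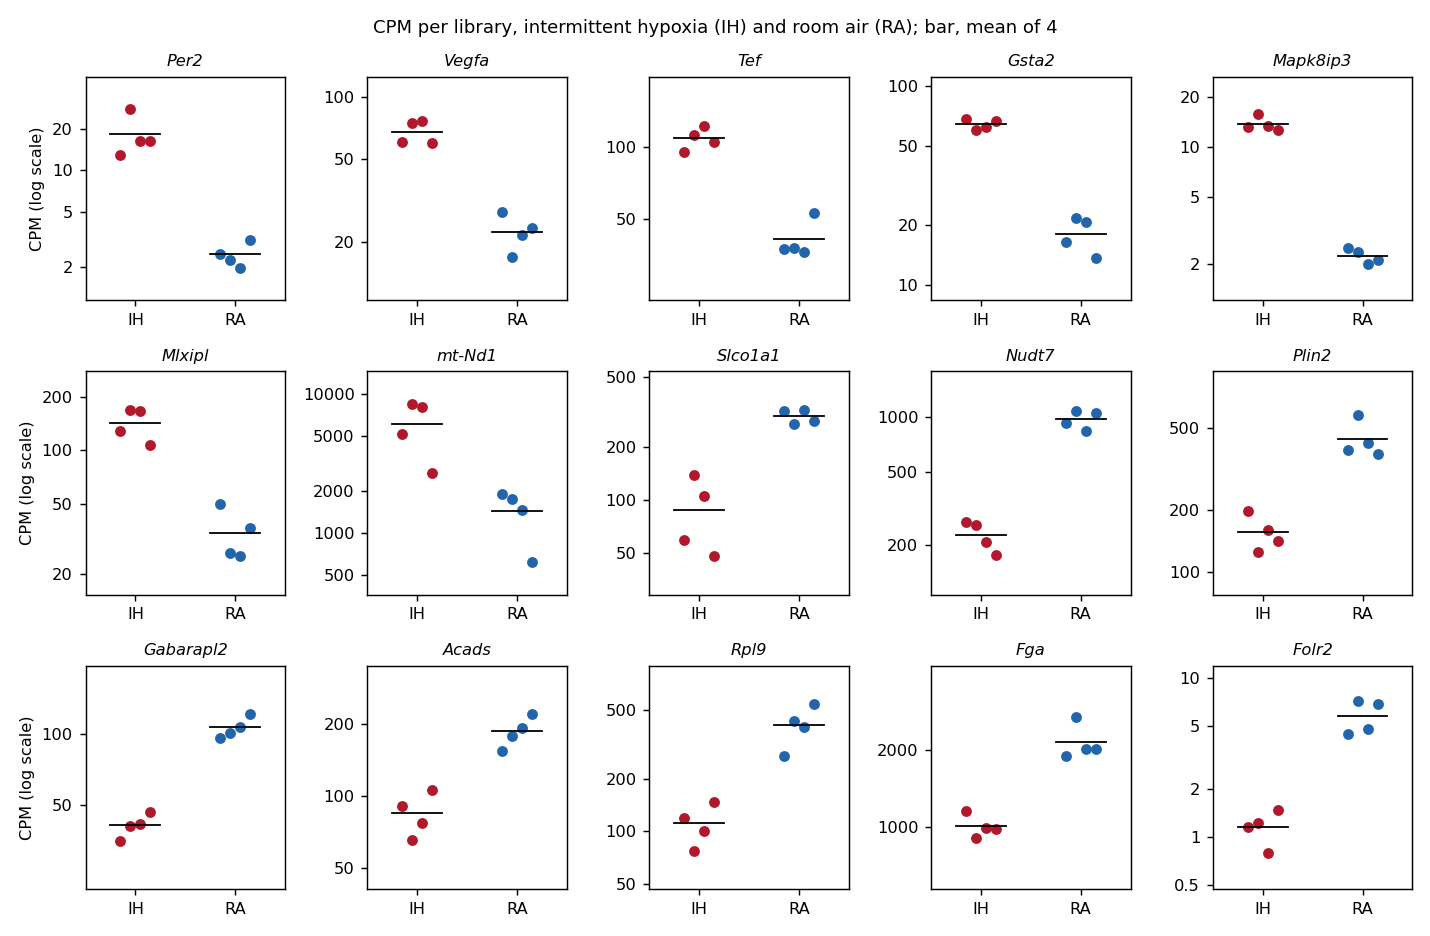
CPM on a log scale in each library for 15 genes, with intermittent hypoxia (IH, red) left of room air (RA, blue) and bars at the mean of 4. In each panel the 4 IH points lie wholly above or wholly below the 4 RA points.

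Few classical targets of HIF rose, and 7 of 19 genes of vessel growth did, against 18.9% of all genes. Vegfa is a member of both lists and counts in each. Of 28 HIF targets tested of 30 listed, 3 rose and 7 fell (4 fell without RA replicate 4), with a median log2 difference of −0.32 beside 0.03 for all genes. With upper-quartile scaling 5 rose and 6 fell, and with offsets for length and GC content the median was −0.21. Vegfa (chromosome 17, 46016993 to 46032369), the vascular growth factor, stood at 60.9, 74.3, 76.7 and 59.9 CPM in the IH libraries, against 27.8, 17.0, 21.6 and 23.4 CPM in the RA libraries (log2 difference 1.60, SE 0.17, edgeR adjusted p = 6.34e-06). Gapdh, a glycolytic enzyme, rose by 0.94, whereas Pgk1, the next enzyme of glycolysis, differed by −1.21 and Bnip3l, a mitophagy receptor, by −0.91; 53.9% of the words of Pgk1 occur in other genes. Pfkfb3, which makes the activator of phosphofructokinase, differed by 1.28, and its call was lost without IH replicate 2 or 3 or RA replicate 1, 2 or 4, with limma-voom, with no filter, with length and GC offsets, and in a fit of the 2 groups alone. Epo, the red cell hormone made in kidney and to a lesser extent in liver, had 0 counts in all 8 libraries.

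Among 15 tested subunits and regulators of HIF, 4 rose and 3 fell, beside 18.9% and 18.3% of all genes. Hif1a and Epas1, the oxygen-sensitive subunits, stood at 8.06 to 12.5 CPM in IH, against 8.11 to 11.1 CPM in RA, and at 26.0 to 39.4 CPM in IH, against 25.3 to 28.4 CPM in RA, and neither passed (edgeR adjusted p = 0.594 and 0.0524). Epas1 passed with DESeq2, with DESeq2 size factors, with a stricter filter (a mean of at least 1 CPM), with upper-quartile scaling (log2 difference 0.45), with scaling without ribosomal RNA, mitochondrial and major urinary protein genes, and without IH replicate 2. The coactivators Crebbp and Ep300 rose by 0.99 and 1.36, and Vhl and Cul2, which belong to the ligase that degrades HIF subunits, stood lower by log2 differences of −0.79 and −1.25. The call of Cited2, a competitor for Ep300, at −0.65, was lost without any 1 of IH replicates 2 to 4 or RA replicates 1 to 3, with the stricter filter, with offsets, with upper-quartile scaling, and in a fit of the 2 groups alone.

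Of 19 genes of vessel growth signalling, 7 rose and none fell, and the 7 did not drop in number when any library was left out. Flt4, a receptor of vascular growth factors, stood at 6.32, 5.88, 4.32 and 3.74 CPM in the IH libraries, against 2.54, 2.39, 1.04 and 1.22 CPM in the RA libraries (log2 difference 1.49, SE 0.31, edgeR adjusted p = 0.000878). Eng, a coreceptor of endothelial cells, rose by 0.74 and Nos3, endothelial nitric oxide synthase, by 1.32, with 32.3% of the exon sequence of Nos3 across from a gene on the other strand. In whole liver, more cells of a type and more RNA per cell cannot be told apart. Among 15 tested markers of sinusoidal endothelium, 4 rose and 2 fell, beside 18.9% and 18.3% of all genes. Their summed level was 168.9 to 259.8 CPM in IH, against 204.6 to 232.9 in RA. This sum was scaled to library totals that include the ribosomal RNA gene, so it does not show whether the cell content differed.

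Genes of the negative limb of the clock rose. Per and Cry proteins and the REV-ERB receptors repress the activators CLOCK and BMAL1, and the factors Dbp, Tef and Hlf carry the rhythm to output genes. All 13 listed genes were tested: 8 rose, none fell, and the median was 0.99, with 3 rises kept with the ribosomal share as covariate. Besides Per2, Tef (chromosome 15, 81802421 to 81826863) stood at 95.2, 112, 122 and 105 CPM in the IH libraries, against 37.6, 38.1, 36.8 and 53.3 CPM in the RA libraries (log2 difference 1.39, SE 0.16, edgeR adjusted p = 7.24e-06). Per3 (chromosome 4, 151003652 to 151044665) stood at 10.7, 17.1, 18.5 and 12.9 CPM in the IH libraries, against 3.23, 2.60, 2.59 and 5.23 CPM in the RA libraries (log2 difference 2.12, SE 0.29, edgeR adjusted p = 3.78e-05), and Dbp at 75.3 to 111 CPM in IH, against 33.4 to 53.8 CPM in RA (log2 difference 0.99, SE 0.17, edgeR adjusted p = 0.000161). In each of these genes the lowest IH library exceeded the highest RA library. Of 9 genes of the positive limb and of clock protein turnover, 2 rose, the casein kinases Csnk1d (0.72) and Csnk1e (1.40), which phosphorylate Per proteins, and none fell; 1 of the rises was kept with the ribosomal share as covariate, and the groups overlapped for Csnk1e. Of 12 output genes 2 rose and 1 fell, with 4 rises without RA replicate 4 and none without RA replicate 1 or with no filter on low counts.

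The promoters of Tef and Per3 are shown because these genes rose and their promoters hold the letters of a clock motif; capitals mark E-boxes (CACGTG, bound by CLOCK and BMAL1) in Tef and D-boxes (TTATGTAA, bound by Dbp, Tef and Hlf) in Per3. Sequences run 5′ to 3′ from 250 bases before to 50 bases after the annotated start (RefSeq, GRCm38.p6), at chr15:81802423-81802722 on the plus strand for Tef and chr4:151044616-151044915 on the minus strand for Per3.
Tef: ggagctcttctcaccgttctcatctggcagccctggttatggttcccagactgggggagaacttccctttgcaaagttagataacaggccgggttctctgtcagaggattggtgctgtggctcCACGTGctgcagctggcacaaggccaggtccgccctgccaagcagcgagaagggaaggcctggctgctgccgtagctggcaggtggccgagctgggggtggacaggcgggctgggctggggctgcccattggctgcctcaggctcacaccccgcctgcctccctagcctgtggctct
Per3: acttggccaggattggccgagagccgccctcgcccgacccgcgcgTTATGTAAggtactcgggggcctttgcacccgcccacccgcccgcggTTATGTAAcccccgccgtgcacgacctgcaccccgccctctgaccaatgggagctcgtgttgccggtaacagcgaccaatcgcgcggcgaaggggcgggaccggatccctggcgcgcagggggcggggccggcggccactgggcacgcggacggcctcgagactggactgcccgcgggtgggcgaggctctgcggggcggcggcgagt
The E-box of Tef begins 127 bases before the start, and the D-boxes of Per3 begin 205 and 158 bases before it. Both strands were searched, and the motifs share no overlap in these windows. The same search found an E-box in the promoters of Per1, Cry1, Ciart and Bhlhe41 as well, and neither motif in those of Cry2, Nr1d1, Nr1d2, Dbp and Hlf. Of 32851 promoters of the same length, 7.15% hold this E-box and 0.938% this D-box, and a match of letters shows no binding.

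Genes of male-type liver fell. In males, pulses of growth hormone act through STAT5B to keep up a male set of genes and hold down a female set. Of 26 male-biased genes tested, none rose and 14 fell (median −1.06, against 18.3% of all genes lower), and 4 falls were kept with the ribosomal share as covariate. Slco1a1 (chromosome 6, 141907282 to 141946962), an organic anion transporter, stood at 59.3, 139, 105 and 48.1 CPM in the IH libraries, against 321, 272, 327 and 284 CPM in the RA libraries (log2 difference −1.78, SE 0.27, edgeR adjusted p = 0.000142). Nudt7 (chromosome 8, 114133557 to 114154739), a peroxisomal coenzyme A hydrolase, stood at 267, 258, 207 and 175 CPM in the IH libraries, against 936, 1087, 844 and 1059 CPM in the RA libraries (log2 difference −2.11, SE 0.25, edgeR adjusted p = 1.35e-05). Scara5, a ferritin receptor, stood at 0.124 to 1.23 CPM in IH, against 2.14 to 4.20 CPM in RA, and C8b, a subunit of the complement pore, differed by −1.29. The groups did not overlap in any of these 4 genes.

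Of 17 female-biased genes tested of 23 listed, 10 rose and 1 fell, and 3 rises were kept with the ribosomal share as covariate. For 6 of the rises, Cux2 and Cyp2b9 among them, at least 1 RA library was below the level of the low-count filter (0.233 CPM); such genes were tested because other libraries reached it, so the count of 10 does not show a direction of the list. Of the 10 members that reached this level in all 4 RA libraries, 4 rose and 1 fell. Cyp2b9, a female-specific P450, stood at 3.93, 2.58, 2.18 and 63.6 CPM in the IH libraries, against 0.0419, 0.0188, 0.113 and 0 CPM in the RA libraries (log2 difference 8.55, SE 1.60, edgeR adjusted p = 0.00124), and IH library 4 was far above the rest. Cux2, a transcription factor of female liver, had 259 reads in IH and 2 in RA in all, a ratio of library shares of 164.6 (95% interval 45.1 to 1366, counting error only). Prlr, the prolactin receptor, averaged 53.8 ± 11.6 CPM in IH and 19.3 ± 4.73 CPM in RA (SD, n = 4 each; log2 difference 1.48, SE 0.28, edgeR adjusted p = 0.000772). Adh4, an alcohol dehydrogenase, fell (log2 difference −0.56), and this call was lost with offsets for length and GC content. With any 1 library left out, 7 to 10 of the list rose. Of 19 tested genes of growth hormone signalling itself 2 rose and none fell, among them the transcription factor Onecut2 (0.99), and 4 rose without RA replicate 1. Ghr, the receptor, and Igf1 had log2 differences of −0.29 and 0.22 and did not pass (edgeR adjusted p = 0.0889 and 0.214); Ghr passed with offsets, at −0.47.

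Transcripts of the major urinary proteins, carriers of pheromones that male liver secretes in large amounts, were lower. They took 2.83%, 10.4%, 5.94% and 4.66% of the counts of IH libraries 1 to 4, against 14.7% to 25.4% in RA. As a share of nuclear protein-coding genes the groups overlapped, with a difference of −12.3 percentage points (exact permutation test, p = 0.0571). Of 22 genes tested 9 fell and none rose, with all 22 log2 differences below 0 (median −1.83), and 18 fell without IH replicate 2, 19 with DESeq2 and 20 with limma-voom. Mup3, whose words are mostly its own, stood at 3328, 8736, 7580.3 and 4802 CPM in the IH libraries, against 14713, 18152, 14768 and 12986 CPM in the RA libraries (log2 difference −1.31, SE 0.26, edgeR adjusted p = 0.000609). Mup20, a pheromone of males, differed by −1.75 and Mup9 by −3.83, but 50.5% and 79.1% of their words occur in other genes, so the split of reads among family members is uncertain.

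SR splicing factors and CLK kinases rose, as did some RNAs kept in the nucleus. Of 12 nuclear-retained RNAs tested, 5 rose and none fell (median 1.51), and with length and GC offsets 4 rose and 1 fell (median 0.83). Mlxipl (chromosome 5, 135089890 to 135138382), which encodes the carbohydrate response factor ChREBP and whose mRNA is largely held in liver nuclei, stood at 128, 168, 166 and 107 CPM in the IH libraries, against 49.5, 26.3, 25.4 and 36.4 CPM in the RA libraries (log2 difference 2.05, SE 0.26, edgeR adjusted p = 3.34e-05). Neat1, the scaffold RNA of paraspeckles, stood at 18.4, 40.2, 30.2 and 22.8 CPM in the IH libraries, against 13.1, 7.55, 6.54 and 4.06 CPM in the RA libraries (log2 difference 1.83, SE 0.41, edgeR adjusted p = 0.00299). The 4 IH libraries lay above the 4 RA libraries for both. Malat1 ranged widely, at 193, 1170.2, 283 and 599 CPM in the IH libraries, against 228, 121, 91.4 and 14.4 CPM in the RA libraries, and did not pass (edgeR adjusted p = 0.0789), though it did with DESeq2 and limma-voom, while Nlrp6, an innate sensor, rose by 2.61.

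Of 36 SR splicing factors, CLK kinases and partners, 28 rose and 1 fell (median 0.82, 0.62 with length and GC offsets). Srrm2, the large scaffold of nuclear speckles, stood at 50.4, 48.1, 51.0 and 31.0 CPM in the IH libraries, against 12.4, 12.8, 11.4 and 9.36 CPM in the RA libraries (log2 difference 1.97, SE 0.21, edgeR adjusted p = 6.44e-06). Snrnp70, a protein of the U1 particle, rose by 1.77, Srsf4 by 1.70 and Srsf11 by 1.17, with 43.0% of the exon sequence of Srsf4 across from a gene on the other strand. The SR factor Srsf3 fell, with a log2 difference of −0.63. Core spliceosome genes did not share this direction, with 5 rises and 8 falls among 30 (5 and 5 with offsets): Sf3a2, a subunit of the U2 particle, rose by 1.92, and Snrpc of the U1 particle differed by −0.78. Of 20 hnRNP genes 5 rose, such as Hnrnph1 (0.94) and Hnrnpul1 (1.05), and Hnrnpc fell (−0.61); with offsets 6 rose and 4 fell.

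Histone methyltransferases and chromatin remodellers, whose transcripts are long, rose as well. Of 29 KMT2, SETD and related enzymes 17 rose and none fell, and of 24 remodellers 19 rose and none fell. With offsets for length and GC content these counts were 15 up and 1 down, and 12 up and 2 down, and 2 remodellers fell without RA replicate 4. Kmt2a (chromosome 9, 44803355 to 44881296), which methylates histone H3 at active genes, stood at 8.36, 7.40, 9.69 and 4.51 CPM in the IH libraries, against 1.66, 1.07, 0.983 and 0.720 CPM in the RA libraries (log2 difference 2.75, SE 0.33, edgeR adjusted p = 9.34e-06). Kmt2b, Kmt2d and Setd5 rose by 1.99, 2.55 and 1.33, and the remodellers Chd3, Baz2a and Chd7 by 1.94, 1.60 and 1.77. Among 26 oxygen-dependent and other demethylases 10 rose and 3 fell (1 fell without IH replicate 2), with Kdm6b and Tet3 up by 2.13 and 1.61 and Riox2 at −0.67. With length and GC offsets 6 demethylases rose and 4 fell.

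Stress kinase genes rose in part. Of 26 tested, 13 rose and none fell (median 0.65), against 18.9% of all genes; with length and GC offsets 11 rose and 3 fell, and 2 rises were kept with the ribosomal share as covariate, those of Taok2 and Mapk8ip3 given above. Nfat5, the factor of the osmotic stress response, stood at 9.17, 10.7, 11.6 and 5.96 CPM in the IH libraries, against 2.35, 1.90, 1.29 and 1.22 CPM in the RA libraries (log2 difference 2.46, SE 0.29, edgeR adjusted p = 8.50e-06), and Map3k1 rose by 1.43. Among 22 genes of p53 and its targets 3 rose and 1 fell (2 and 3 with offsets), beside 18.9% and 18.3% of all genes. Mdm4, an inhibitor of p53, rose by 2.16 and Trp53 itself by 1.05. Of 18 immediate early genes 4 rose, a share near the 18.9% of all genes, including Fosl2 (1.60) and Ier3 (1.78). For 2 of them, Ier3 included, at least 1 RA library was below the level of the low-count filter, and 2 rose with the stricter filter. Of the 15 members that reached this level in all 4 RA libraries, 2 rose. Of 14 genes of nonsense-mediated decay 6 rose, such as the kinase Smg1 (1.50), and Eif4a3, of the exon junction complex, fell (−0.72).

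**Figure D4:**
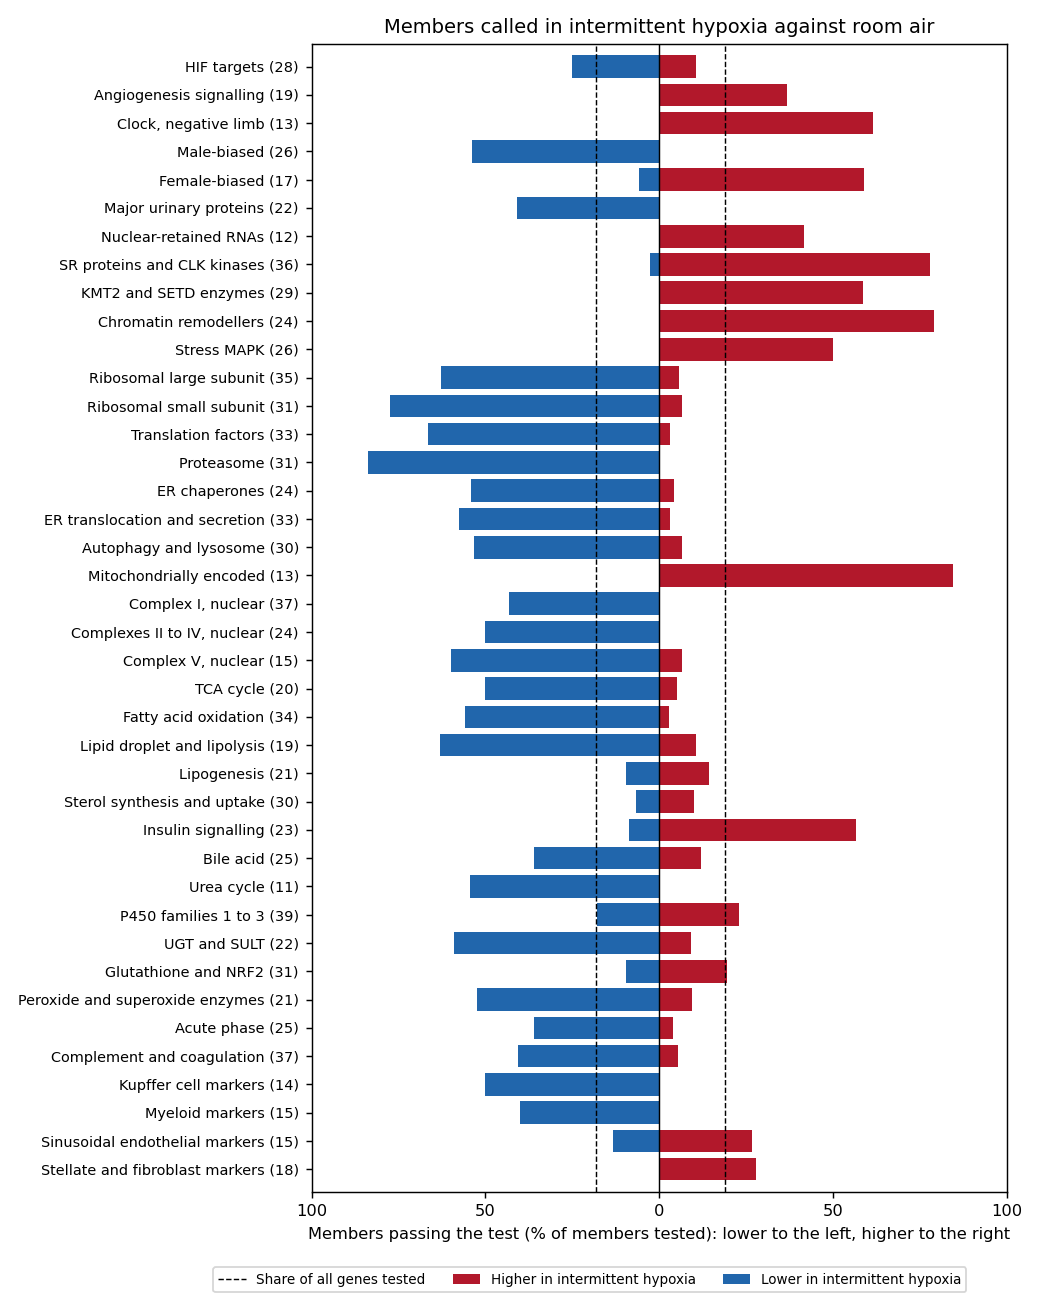
Percentage of tested members that passed the test in 40 gene lists, with members higher in intermittent hypoxia to the right and members lower to the left; numbers in brackets are members tested and dashed lines mark the 18.9% of all genes that rose and 18.3% that fell. Chromatin lists and the list of SR factors and CLK kinases lie to the right, and lists of translation, protein turnover and fat oxidation to the left.

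Genes of the cytosolic ribosome and of translation fell. Of 35 large-subunit genes 22 fell and 2 rose (neither rise was kept without IH replicate 1 or RA replicate 4), and of 31 small-subunit genes 24 fell and 2 rose, with medians of −0.50 and −0.65. With length and GC offsets 17 large-subunit genes fell and 6 rose (median −0.32), and 18 and 4 of the small subunit; with upper-quartile scaling 21 and 6, and 21 and 4, with 6 and 4 rises under the stricter filter too. Rpl9 (chromosome 5, 65388364 to 65391444) stood at 119, 77.4, 101 and 148 CPM in the IH libraries, against 270.2, 429, 398 and 542 CPM in the RA libraries (log2 difference −1.88, SE 0.22, edgeR adjusted p = 1.16e-05), and Rps3 (chromosome 7, 99477896 to 99483738), which also takes part in DNA repair, at 209, 182, 177 and 229 CPM in the IH libraries, against 362, 496, 499 and 676 CPM in the RA libraries (log2 difference −1.35, SE 0.18, edgeR adjusted p = 2.07e-05). In both genes all IH libraries were below all RA libraries. Rpl34, Rpl13a and Rps24 differed by −1.06, −1.23 and −1.08, whereas Rps26 and Rps28 rose by 0.54 and 0.57. Of 33 initiation and elongation factors 22 fell and 1 rose; Eif3i differed by −1.32, Eif2s1, the initiation factor subunit phosphorylated under stress, by −1.14, and Eif4g3 rose by 0.90 with groups that overlapped.

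Genes of protein folding, secretion and breakdown fell at several steps. Of 24 chaperones and sensors of the endoplasmic reticulum 13 fell and 1 rose, and 2 falls were kept with the ribosomal share as covariate; 3 rose without IH replicate 1. Canx, calnexin, stood at 127, 83.7, 91.0 and 132 CPM in the IH libraries, against 215, 217, 221 and 206 CPM in the RA libraries (log2 difference −0.99, SE 0.18, edgeR adjusted p = 0.000286). The disulfide isomerases Pdia6, Pdia3 and P4hb differed by −0.94, −0.94 and −0.82, while Ern1, the sensor IRE1, rose by 0.95. Of 33 genes of translocation and export 19 fell and 1 rose; Sar1b, the GTPase of COPII coats needed to export lipoproteins, differed by −1.25, Sec61g, of the translocation channel, by −1.37, and Sec31a, of the outer COPII coat, rose by 0.86. Of 31 proteasome genes 26 fell and none rose, with Psmd13 at 39.0, 19.3, 26.6 and 44.0 CPM in the IH libraries, against 69.1, 89.1, 90.3 and 114 CPM in the RA libraries (log2 difference −1.49, SE 0.22, edgeR adjusted p = 5.80e-05). Of 30 genes of autophagy and lysosomes 16 fell, 1 of them also with the ribosomal share as covariate, and 2 rose, neither with length and GC offsets; Atg5 and Atg16l1, which attach autophagosome proteins to lipid, differed by −0.73 and −0.67.

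Transcripts of the mitochondrial genome and nuclear genes of the same respiratory complexes moved in opposite directions. Of 13 mitochondrially encoded genes 11 rose and none fell (median 2.26). The complex I gene mt-Nd1 stood at 5091, 8438, 8015 and 2697 CPM in the IH libraries, against 1905, 1753, 1473 and 618 CPM in the RA libraries (log2 difference 2.08, SE 0.41, edgeR adjusted p = 0.00129), and the complex III gene mt-Cytb at 6162 to 14789 CPM in IH, against 1126 to 3965 CPM in RA (log2 difference 2.06, SE 0.41, edgeR adjusted p = 0.00124). Each IH library exceeded each RA library in both genes, although IH library 4 of mt-Nd1 lay nearest to RA. Of 37 nuclear genes of complex I, none rose and 16 fell; of 24 of complexes II to IV, none rose and 12 fell; and of 15 of complex V, 1 rose and 9 fell. Their medians were −0.31, −0.39 and −0.47. With length and GC offsets 3 complex I genes rose and 12 fell (median −0.14), and 2 and 11 of complexes II to IV (median −0.21); with upper-quartile scaling 2 complex I genes rose and 13 fell, and 2 rose with the stricter filter.

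Ndufv1, of the NADH-binding end of complex I, stood at 86.0, 77.5, 90.7 and 115 CPM in the IH libraries, against 163, 169.7, 159.6 and 215 CPM in the RA libraries (log2 difference −0.94, SE 0.15, edgeR adjusted p = 9.02e-05). Sdhd, the membrane anchor of complex II, stood at 136, 63.6, 96.9 and 149 CPM in the IH libraries, against 208, 285, 332 and 320.4 CPM in the RA libraries (log2 difference −1.36, SE 0.22, edgeR adjusted p = 0.000130). Uqcrh and Cyc1 of complex III differed by −1.18 and −0.91, and Atp5b, the catalytic subunit of ATP synthase, by −0.92. Of 20 TCA cycle genes 10 fell and 1 rose: Dld and Pdhx, parts of the pyruvate dehydrogenase complex, both differed by −1.10, and Ogdh, the first subunit of the oxoglutarate dehydrogenase complex, rose by 0.60.

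Genes of fat burning and fat storage fell. Of 34 genes of fatty acid oxidation, ketone formation and PPARA response, 19 fell and 1 rose (median −0.58). Acads (chromosome 5, 115110299 to 115119346), the dehydrogenase of short-chain fatty acids, stood at 90.4, 65.2, 77.3 and 106 CPM in the IH libraries, against 155, 178, 192 and 219.6 CPM in the RA libraries (log2 difference −1.13, SE 0.16, edgeR adjusted p = 3.44e-05). Decr1, which clears double bonds during oxidation, differed by −0.88, whereas Cpt1a, the gate for fatty acid entry into mitochondria, rose by 0.66 (96.5 to 147 CPM in IH, against 70.5 to 95.2 CPM in RA, without overlap). Of 19 genes of lipid droplets and lipolysis 12 fell and 2 rose; 6 fell without IH replicate 2, 7 without IH replicate 3 or RA replicate 3, and neither rise was kept without RA replicate 1 or 3. Besides Plin2, the coat protein Plin3 differed by −0.83, and Abhd5, the activator of adipose triglyceride lipase, by −0.89.

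Fat and sterol synthesis showed no common direction. Of 21 genes of lipogenesis 3 rose (5 in a fit of the 2 groups alone) and 2 fell: besides Mlxipl, the phosphatidate phosphatase Lpin2 rose by 0.97, and Nr1h3, the oxysterol receptor LXRα, and Agpat2 differed by −0.80 and −0.43. Of 30 genes of sterol synthesis, uptake and export 3 rose and 2 fell, and 2 of the rises and 1 fall were kept with the ribosomal share as covariate. Abcg5, which with Abcg8 pumps sterols into bile, stood at 73.6, 77.7, 64.8 and 70.2 CPM in the IH libraries, against 31.1, 30.3, 30.6 and 25.6 CPM in the RA libraries (log2 difference 1.28, SE 0.15, edgeR adjusted p = 8.97e-06). Abcg8 rose by 0.93. Insig2, which holds back sterol synthesis, stood at 52.3, 43.4, 55.5 and 39.0 CPM in the IH libraries, against 149, 128, 137 and 78.4 CPM in the RA libraries (log2 difference −1.37, SE 0.23, edgeR adjusted p = 0.000193), with no overlap. The call of Scap, at −0.36, was lost without IH replicate 3 or RA replicate 2 and with upper-quartile scaling.

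Genes of glucose metabolism showed no common direction. Pck1 and G6pc, enzymes of glucose production, stood at 1248 to 2129 CPM in IH, against 819 to 2004 CPM in RA and at 125 to 176 CPM in IH, against 124 to 167 CPM in RA; neither passed (edgeR adjusted p = 0.432 and 0.845). Fbp1 and Pcx, further enzymes of the pathway, differed by −1.19 and −0.96, and Crtc2, a coactivator of glucagon-driven transcription, rose by 1.52. Over the 16 genes of the list 6 rose and 3 fell, with 3 rises without IH replicate 4 or RA replicate 2 and, beside 2 falls, with length and GC offsets. Pygl, liver glycogen phosphorylase, stood at 86.4, 101, 112 and 128 CPM in the IH libraries, against 215, 207, 217 and 213 CPM in the RA libraries (log2 difference −0.99, SE 0.15, edgeR adjusted p = 6.04e-05). Over 20 glycolysis and glycogen genes 3 rose and 5 fell, and without IH replicate 4 none rose and 8 fell; the rises were lost without RA replicate 3 as well, and with no filter, and 1 was kept without RA replicate 2 or with offsets.

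Of 23 genes of insulin signalling 13 rose and 2 fell, and with length and GC offsets 5 rose and 5 fell. Irs1, the docking protein of the insulin receptor, stood at 3.05, 3.61, 2.36 and 1.93 CPM in the IH libraries, against 0.838, 0.772, 0.643 and 0.336 CPM in the RA libraries (log2 difference 2.07, SE 0.37, edgeR adjusted p = 0.000281), with 30.9% of its exon sequence across from a gene on the other strand. Rictor, of the mTORC2 complex, rose by 1.27 and Tsc1, which restrains mTORC1, by 1.42, whereas Mtor and Rptor differed by −0.55 and −0.53.

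Bile acid and urea cycle genes fell in part. Of 25 bile acid genes 9 fell and 3 rose, with 1 of each kept with the ribosomal share as covariate. Cyp7a1, the rate-limiting enzyme of synthesis, stood at 54.3 to 74.9 CPM in IH, against 69.9 to 105 CPM in RA and did not pass (edgeR adjusted p = 0.689). Baat, which joins bile acids to taurine, stood lower in all 4 IH libraries (log2 difference −1.21, SE 0.16, edgeR adjusted p = 2.03e-05), and Amacr, of side chain shortening, differed by −0.95. The transporters Slco1a4 and Abcc2 rose by 1.15 and 0.88. Of 22 genes of lipoproteins 7 fell and 1 rose, Tm6sf2, which loads lipid onto secreted particles (1.16), and 3 rose without IH replicate 1 or with length and GC offsets. Of 11 urea cycle genes 6 fell and none rose, and 3 fell without IH replicate 2 or RA replicate 3; Otc and Ass1, consecutive enzymes of the cycle, differed by −0.75 and −0.72. Of 38 amino acid breakdown genes 9 fell and 3 rose (5 with DESeq2), a share of falls near the 18.3% of all genes, with Tdo2, which opens the tryptophan ring, at −0.94 and Fah, the last enzyme of tyrosine breakdown, at 0.72.

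Drug-metabolising families differed from each other. Among 39 P450 genes of families 1 to 3, 9 rose and 7 fell, shares near the 18.9% and 18.3% of all genes. With the ribosomal share as covariate 2 rises were kept. For 3 of the rises at least 1 RA library was below the level of the low-count filter. Of the 33 members that reached this level in all 4 RA libraries, 6 rose and 7 fell. Cyp3a11, a main drug oxidase, stood at 3139, 3819.6, 4013 and 4145 CPM in the IH libraries, against 5790.4, 8928, 12188 and 10634 CPM in the RA libraries (log2 difference −1.31, SE 0.23, edgeR adjusted p = 0.000209), and Cyp2d40 differed by −1.61. Of 22 glucuronosyltransferases and sulfotransferases 13 fell, 3 of them also with that covariate, and 2 rose; Ugt2b5 stood at 598, 831, 678 and 573 CPM in the IH libraries, against 1238, 1548, 1549.5 and 1498 CPM in the RA libraries (log2 difference −1.12, SE 0.17, edgeR adjusted p = 6.90e-05). Neither rise was kept without IH replicate 3 or 4 or RA replicate 1, 2 or 4, or with the replicate block. Of 31 glutathione and NRF2 genes 6 rose, a share near the 18.9% of all genes, and 3 fell (6 without IH replicate 4). With the covariate 1 of the rises was kept. Gstm1 and Gstm3 rose by 1.34 and 1.81, and Gss, glutathione synthetase, and Txnrd1, thioredoxin reductase, differed by −0.86 and −0.45.

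Genes of enzymes that remove peroxide fell more often than they rose. Of 21 genes 11 fell and 2 rose. Gpx1, the cytosolic glutathione peroxidase, stood at 1762, 1278, 1359 and 1944 CPM in the IH libraries, against 2563, 3854, 2908 and 3777 CPM in the RA libraries (log2 difference −1.05, SE 0.21, edgeR adjusted p = 0.000723), and the peroxiredoxins Prdx1 and Prdx2 differed by −0.98 and −1.06. Sod3, the extracellular superoxide dismutase, rose by 1.44, with no overlap between groups. The other rise, that of Sod2 (0.35), was lost without IH replicate 2 or 3 or RA replicate 1, 3 or 4, with limma-voom, with no filter, with offsets (0.08), and in a fit of the 2 groups alone. Of 21 peroxisome genes 10 fell, such as Pex3 (−0.84), and 2 rose, 1 of them also with the ribosomal share as covariate.

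Plasma protein genes fell in part. Of 25 acute phase genes 9 fell and 1 rose, and 5 fell without IH replicate 2 or RA replicate 4; with offsets 3 rose. Fga (chromosome 3, 83026076 to 83033627), a fibrinogen chain, stood at 1159, 911, 992 and 986 CPM in the IH libraries, against 1896, 2679.6, 2009.9 and 2017 CPM in the RA libraries (log2 difference −1.09, SE 0.24, edgeR adjusted p = 0.00156), Fgg, another chain, differed by −1.02, and Il6ra, the receptor for interleukin 6, rose by 1.69. Of 37 complement and coagulation genes 15 fell, 1 of them also with the ribosomal share as covariate, and 2 rose; F13b, C4bp and Mbl1 differed by −1.17, −1.07 and −0.97. Masp1, a protease of the lectin pathway, rose by 0.71. Hamp, the iron hormone hepcidin, stood at 1249, 1209, 1867 and 739 CPM in the IH libraries, against 958, 1584, 1177 and 824 CPM in the RA libraries and did not pass (edgeR adjusted p = 0.738). Among 28 interferon-stimulated genes 4 rose and 5 fell, beside 18.9% and 18.3% of all genes. There were 3 falls without IH replicate 2 or 3 or RA replicate 2 and 9 without IH replicate 4. The falls numbered 12 with the replicate block and 3 with limma-voom, the stricter filter (2 rises) and each other scaling. The signal transducer Stat2 rose by 1.46 and the RNA sensor Ifih1 differed by −0.80.

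Markers of resident macrophages were lower. Of 14 Kupffer cell markers none rose and 7 fell (median −0.81). Nr1h3 is a member of this list and of the lipogenesis list and counts as a fall in each. The summed level of the 14 markers was 153.8 to 333.8 CPM in IH, against 363.9 to 491.7 in RA. This sum was scaled to library totals, which include the ribosomal RNA gene, without the TMM factors used for CPM of the single genes below. Clec4f, a lectin made by Kupffer cells, stood at 23.3, 12.7, 9.69 and 20.6 CPM in the IH libraries, against 42.2, 41.6, 31.7 and 66.1 CPM in the RA libraries (log2 difference −1.45, SE 0.29, edgeR adjusted p = 0.00113). Adgre1, which encodes F4/80, stood at 1.50, 0.560, 0.786 and 0.568 CPM in the IH libraries, against 2.51, 3.50, 2.93 and 4.83 CPM in the RA libraries (edgeR adjusted p = 0.000193). The groups did not overlap in either gene. Folr2 differed by −2.30, with 63.1% of its exon sequence across from a gene on the other strand, and Cd5l by −1.33. Of 15 general myeloid markers none rose and 6 fell, led by Lyz2, lysozyme (−1.90), and the adaptor Tyrobp (−1.59). Of 9 MHC class II genes 3 fell, 1 without IH replicate 2 or 3 or RA replicate 4 and 5 without IH replicate 1; Ctss, the protease cathepsin S, differed by −1.19.

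Matrix and zonation genes rose in part, beside 18.9% of all genes. Of 29 collagen and matrix genes 11 rose and 1 fell, with 7 rises without RA replicate 2. With length and GC offsets 4 rose, where 2110 of all 14553 genes did. Col27a1 and Col5a3 rose by 3.26 and 3.14, and Timp3, an inhibitor of matrix proteases, by 1.04. For Col1a1, a rise in this list and the next, at least 1 RA library was below the level of the low-count filter. Of the 24 matrix genes that reached this level in all 4 RA libraries, 10 rose and 1 fell. Of 18 markers of stellate cells and fibroblasts 5 rose and none fell (3 rose without RA replicate 2 or with offsets), with Ecm1 and Vipr1 at 0.95 and 1.01. Of 22 pericentral and Wnt pathway genes 9 rose and none fell; Axin2, a target and brake of Wnt signalling, averaged 1.96 ± 0.706 CPM in IH and 0.655 ± 0.259 CPM in RA (SD, n = 4 each; log2 difference 1.57, SE 0.39, edgeR adjusted p = 0.00348), and Nkd1 and Apc rose by 1.65 and 1.35. Of 20 periportal genes 4 fell, a share near the 18.3% of all genes, and none rose, with 2 falls without IH replicate 2 or RA replicate 3 and 9 without IH replicate 1.

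Of 12 tested hepatocyte markers none rose and 4 fell, against 18.3% of all genes lower (median −0.27). The groups did not overlap in these 4, where 18% of all genes were lower without overlap. Without IH replicate 2 or RA replicate 3, 2 fell. Cell types not yet described gave few calls. Among tested markers of B cells (7), T and NK cells (11), neutrophils (5), bile duct cells (9), red cells (9), fat cells (6) and acinar pancreas (2), at most 1 rose and 1 fell in any list. Slc25a37, the mitochondrial iron importer, was the rise among the red cell genes (21.3, 23.5, 17.9 and 18.3 CPM in the IH libraries, against 8.09, 5.29, 5.95 and 6.96 CPM in the RA libraries; log2 difference 1.63, SE 0.18, edgeR adjusted p = 6.34e-06) and passed with the ribosomal share as covariate, while Hba-a1, an α-globin gene with 72.3% of its words in other genes, had a log2 difference of 1.15 and did not pass, though it did in a fit of the 2 groups alone. The fat cell hormones Adipoq and Lep, 5 of 10 muscle markers and 4 of 10 pancreas markers were at 0 in all 8 libraries. Of 13 cell division genes none rose and 2 fell, Pcna (−0.79) and Cdk1 (−1.51).

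The 4 IH libraries differed from each other in some gene groups. For the negative limb of the clock, the median over genes of log2(CPM + 2) minus the RA mean was 0.70, 1.03, 0.68 and 0.98 in IH libraries 1 to 4, against −0.03, −0.02, −0.17 and 0.17 in RA libraries 1 to 4. For the proteasome it was −0.71, −0.62, −0.60 and −0.40, against −0.13, 0.01, 0.02 and 0.07. These groups moved to a similar degree in every IH library. Male-biased genes stood at −2.07 in IH library 4 and between −0.97 and −0.85 in the other three. Major urinary protein genes ranged from −3.50 in library 1 to −0.61 in library 2, and mitochondrially encoded genes from 1.25 in library 4 to 2.90 in library 2. Library 4, with the lowest ribosomal share of the 4, had the smallest mitochondrial and the largest male-biased differences, and RA library 4, with the lowest ribosomal share in RA, had the lowest mitochondrial value of RA at −1.09.

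**Figure D5:**
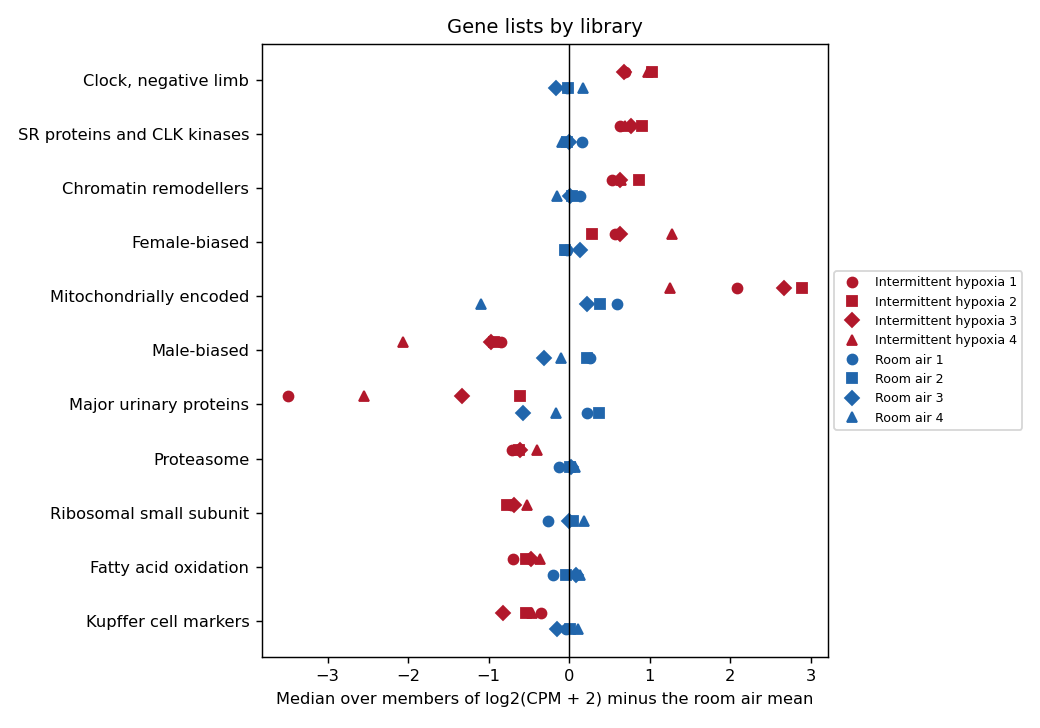
Median over the tested members of 11 gene lists of log2(CPM + 2) minus the room air mean, for each intermittent hypoxia library (red, above) and room air library (blue, below); symbols give the library number. Clock, proteasome and ribosomal medians lie close together in intermittent hypoxia, and those of major urinary protein genes run from −3.50 to −0.61.

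The same IH libraries were tested directly against sustained and overlap hypoxia; these comparisons share the IH libraries with the one against RA, so that their counts are not independent of it. Against sustained hypoxia 2836 genes were higher and 2748 lower in IH (38.4% of those tested), and against overlap hypoxia 429 were higher and 466 lower (2.95% and 3.2%, 6.15% together). The second comparison rested on few libraries: without overlap hypoxia replicate 4, 9 genes were higher and 7 lower, without IH replicate 2, 107 and 64, and none passed when the 2 groups were fitted alone. The ribosomal RNA gene took 18.5% to 34.8% of counts in IH, 1.55% to 2.77% in sustained hypoxia and 2.53% to 16.8% in overlap hypoxia. Of 13 negative-limb clock genes, 7 were higher in IH than in sustained hypoxia and 3 higher than in overlap hypoxia, with no gene lower in either. Per2 stood at 12.8 to 27.7 CPM in IH, against 4.01 to 6.23 CPM in sustained hypoxia, and at 5.64 to 10.3 CPM in overlap hypoxia (log2 differences 1.76 and 1.13, edgeR adjusted p = 3.35e-05 and 0.0162).

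Male-biased and vessel genes also differed between IH and the other exposures, although the calls against overlap hypoxia rested on single libraries. Of 26 male-biased genes 13 were lower in IH than in sustained hypoxia and 6 lower than in overlap hypoxia. Slco1a1 stood at 48.1 to 139 CPM in IH, against 185 to 357 CPM in overlap hypoxia (log2 difference −1.68, edgeR adjusted p = 0.00955), and Nudt7 at 175 to 267 CPM in IH, against 366 to 836 CPM in overlap hypoxia (−1.44, edgeR adjusted p = 0.00969). Of 19 genes of vessel growth signalling 7 were higher in IH than in overlap hypoxia and none lower. Of 15 sinusoidal endothelial markers 11 were higher in IH than in overlap hypoxia and none lower. These lists share members, Flt4 among them, so their counts are not independent. Flt4 stood at 3.74 to 6.32 CPM in IH, against 1.75 to 2.82 CPM in overlap hypoxia (1.26, edgeR adjusted p = 0.0264), and Stab2, a scavenger receptor of these cells, at 13.5 to 15.6 CPM in IH, against 5.85 to 10.8 CPM in overlap hypoxia (0.95, edgeR adjusted p = 0.0199). Without overlap hypoxia replicate 4, none of the clock or vessel growth genes passed, and 1 male-biased gene and 1 sinusoidal marker did. In that fit the log2 differences were 0.98 for Per2, −1.56 for Slco1a1, −1.29 for Nudt7, 1.20 for Flt4 and 0.84 for Stab2, with edgeR adjusted p of 0.0657, 0.0449, 0.0508, 0.0966 and 0.0841. Without IH replicate 2, 3 genes of vessel growth signalling, 7 sinusoidal markers and 3 male-biased genes passed. Without IH replicate 3, 2 male-biased genes and 3 of vessel growth signalling passed. Negative-limb clock genes that passed numbered 1 or 2 with any other library left out. Of 13 mitochondrially encoded genes 13 were higher in IH than in sustained hypoxia, and none differed from overlap hypoxia at this threshold.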

How the data were processed

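Liver RNA of 16 libraries, 4 per group, was sequenced, and the authors deposited 1 table of expected counts per gene, estimated with Bowtie 1.3.0 and RSEM on GRCm38 per the submitters' processing notes; annotation release, strand setting and filters are not given there. Of the nonzero values 49.3% were not whole (tolerance 0.005), and counts were rounded. Genes were tested with edgeR 4.0.16 (R 4.3.3; filterByExpr, TMM scaling, robust quasi-likelihood test) in 1 fit of all 16 libraries with a coefficient per group, Benjamini-Hochberg adjustment over 14553 genes and a threshold of 0.05; standard errors were derived from the F statistics. The procedure was tested on simulated data. CPM used TMM library sizes, except for Ddx3y and the summed levels of gene lists. Those were scaled to library totals without TMM factors, which ran from 0.722 to 1.11 in IH and from 0.900 to 1.10 in RA. The summed levels are thus not on the scale of the single genes beside them. Library totals set the counting error, and RSEM's sharing of multi-mapped reads can shift related genes; the share of 50-base words found in other genes and the exon overlap with genes on the other strand were taken from GENCODE transcripts. Alternatives used DESeq2 1.42.0, limma 3.58.1, other scalings and filters, offsets for length and GC content, the ribosomal share as covariate, a replicate block, and each library left out; leaving out libraries for gene lists and named genes against overlap hypoxia was chosen after seeing the data.

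Genes were named by rule: the 12 rises and 12 falls with the lowest p among genes that passed, averaged 5 CPM or more, did not overlap between groups and shared at most 50% of their words, up to 4 members with the lowest p per list with any called in the opposite direction, and a few chosen in advance. Per1, Cry1 and other genes in the promoter search are named without values, and some genes that the rule names are not reported here. The members and lists were chosen with earlier results of these data known.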

Additional observations from a re-analysis of the deposited data

Results flagged for a closer look

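Among groups of 4 libraries, 1 value stood apart from the other three in 21 of the genes named and in 1 class of RNA. These are 22 of 412 groups checked; chance alone flags about 1 in 20, so their number is near what chance gives, and their causes were not tested. In IH, the highest library stood apart for Cyp2b9 (63.6 CPM), Cul2 (15.6 CPM), Hnrnph1 (51.2 CPM), Crtc2 (19.2 CPM), Decr1 (140.3 CPM) and Pcna (17.0 CPM). The lowest IH library stood apart for Srrm2 (31.0 CPM), Riox2 (2.63 CPM) and Lpin2 (184.6 CPM). In RA, the highest library stood apart for Cux2 (0.0377 CPM), Tef (53.3 CPM), Srsf3 (45.4 CPM), Map3k1 (1.86 CPM), Tsc1 (5.28 CPM), Fga (2679.6 CPM), Masp1 (38.4 CPM), Lyz2 (96.9 CPM) and Cyp7a1 (105.2 CPM). The lowest RA library stood apart for Abcg5 (25.6 CPM), Ugt2b5 (1238 CPM) and Prdx1 (1239 CPM). For the share of long noncoding and unclassified RNAs the lowest RA library took 0.235% of counts.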

How the results depend on the processing

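The numbers of genes called against RA stayed within 1.5 times the reported ones in every alternative but 1: with the ribosomal share as covariate 43 rose and 34 fell. With that covariate 0 genes were higher and 1 lower than in sustained hypoxia, and 1 was higher and 3 lower than in overlap hypoxia. Against overlap hypoxia DESeq2 called 805 higher and 751 lower and limma-voom 269 and 177, a fit of the 2 groups alone called 0 in each direction, where 3689 genes had an unadjusted p under 0.05 in the fit of all libraries. With each library left out, the counts ran from 9 to 573 higher and from 7 to 833 lower; the cause was not tested. With the replicate block 2744 rose and 2799 fell against RA. Deviations of same-numbered IH and RA libraries had correlations of 0.0004 to 0.183, and only replicate 4 matched its own number best. With 4 libraries per group this check cannot exclude a pairing or a shared batch. With a library left out, an exact permutation test of 3 against 4 cannot go below p = 0.0571; the difference between shares ran from 16.8 to 22.3 percentage points for the ribosomal RNA gene, from 4.58 to 5.95 for mitochondrial protein genes and from −15.9 to −12.3 for major urinary proteins. As a share of nuclear protein-coding genes the last difference was −12.3 (exact p = 0.0571), and the groups overlapped. Of the genes named, none that passed reversed. Among those that did not pass, the sign turned with the covariate for Cyp7a1 (0.47), G6pc (−0.13), Hamp (−0.16), Hif1a (−0.049) and Igf1 (−0.16), with limma-voom for Alb (−0.010) and Hamp (−0.012), and with no filter for Alb (−0.044). With each library left out the log2 difference ran from −0.12 to 0.12 for Alb, from −0.0017 to 0.16 for G6pc and from −0.082 to 0.35 for Hamp.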
